A study of Mus musculus with 10 samples.

Results

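The genes described here are those of the cytosolic ribosomal proteins in the livers of female mice. Members were the genes named by a probe of the array whose symbol begins with Rpl, Rplp or Rps and a number, or is Rpsa, without the kinases of the Rps6k family and without pseudogenes, and each gene was represented by its brightest probe. The rule found 73 genes among the 7409 genes with a named probe, with 82 probes in all. It goes by gene symbol alone, but the family was chosen with earlier results of these data known. They comprised 37 proteins of the large subunit, 30 of the small subunit, 2 of the P stalk and 4 paralogs (Rpl7l1, Rpl22l1, Rpl36al and Rps27l). Of the 73 genes, 65 (89%) were detected on at least 5 of the 10 arrays, whatever the group, and entered the tests.

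The ribosome translates mRNA into protein. Its small subunit decodes the mRNA, its large subunit joins the amino acids, and each subunit is built from rRNA and a set of small basic proteins that are assembled largely in the nucleolus. Genes of ribosomal proteins are among the most strongly transcribed of a cell, and many of their mRNAs begin with a run of pyrimidines, the TOP tract, through which nutrient signalling by the mTOR kinase sets their translation. Liver makes most plasma proteins and carries a large number of ribosomes.

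The study compared 5 female mice heterozygous for Gyk with 5 female wildtype mice of the C57Bl/6J strain. All animals were killed at 23 weeks of age, after a chow with 4% fat until week 11 and one with 6% fat from then on, and RNA of each liver was hybridised to 1 Illumina bead array. Gyk codes for glycerol kinase and lies on the X chromosome, so that, with 1 X chromosome silenced per cell, heterozygous animals carry a mosaic of hepatocytes with the altered or the intact copy in use. The design text calls the heterozygous animals transgenic, and no source used here describes the altered allele. The titles of the samples begin with the numbers 1, 1, 1, 2 and 2 in heterozygous replicates 1 to 5, and with 1, 2, 7, 7 and 7 in wildtype replicates 1 to 5. What this number stands for is not stated, and the number 7 occurred in wildtype animals alone.

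Gyk itself was lower in heterozygous liver. The Gyk probe had intensities of 400.1, 235, 272, 259 and 433 in heterozygous livers, against 914, 437, 579.7, 416 and 446 in wildtype livers. On the normalized log2 scale all 5 heterozygous values lay below all 5 wildtype values, with a log2 change of -0.65 (SE 0.19, limma adjusted p = 0.331) and p = 0.00794 in a two-sided exact permutation test, the smallest p that 252 assignments allow. The arrays of heterozygous replicate 1 and wildtype replicate 1 stood apart from the rest, with a correlation over kept probes of 0.991 with each other and of 0.934 to 0.967 with the other 8 arrays, which correlated at 0.965 to 0.99 among themselves. Array medians were 14 to 24, and 9991 to 10876 of 24048 probes were detected per array. Of the 2 hepatocyte markers with a probe, both were bright on every array, with summed intensities of 50855 to 66329 in heterozygous and 61718 to 70587 in wildtype livers.

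Most ribosomal protein probes were among the brightest of the array. The mean intensity over 10 arrays was above 10000 for 24 genes, which 2.24% of all kept probes reached, and between 1000 and 10000 for 33 genes, and 54 of the 73 lay above the 95th percentile of all probes. The brightest probe was that of Rpl23, a large subunit protein, with 22692 ± 1964 in heterozygous and 25329 ± 2411 in wildtype livers (SD, n = 5 each), followed by Rpl41 and Rps14 with means of 22001 and 20793. Brightness also depends on the sequence of a probe, so these values do not order the transcripts by amount. Among the 8 tested genes with a mean under 1000 were Rpl36al at 31.0, Rps15a at 45.1, Rps24 at 58.0, Rplp0 at 90.2, Rpl30 at 194 and Rps6 at 266.

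The 8 genes that did not enter the tests were Rpl4, Rpl18, Rpl22l1, Rpl29, Rplp2, Rps18, Rps19 and Rpsa. Their probes were detected on 0 to 2 arrays, with mean intensities between -30.2 for Rps18 and 20 for Rpl29, and Rpsa, which is also known as the laminin receptor, averaged 6.99. All of them code for proteins of the ribosome or, for Rpl22l1, a paralog of one. Whether a low value comes from the probe or from the transcript was not tested, so these values give no level for the transcripts.

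**Figure D1:**
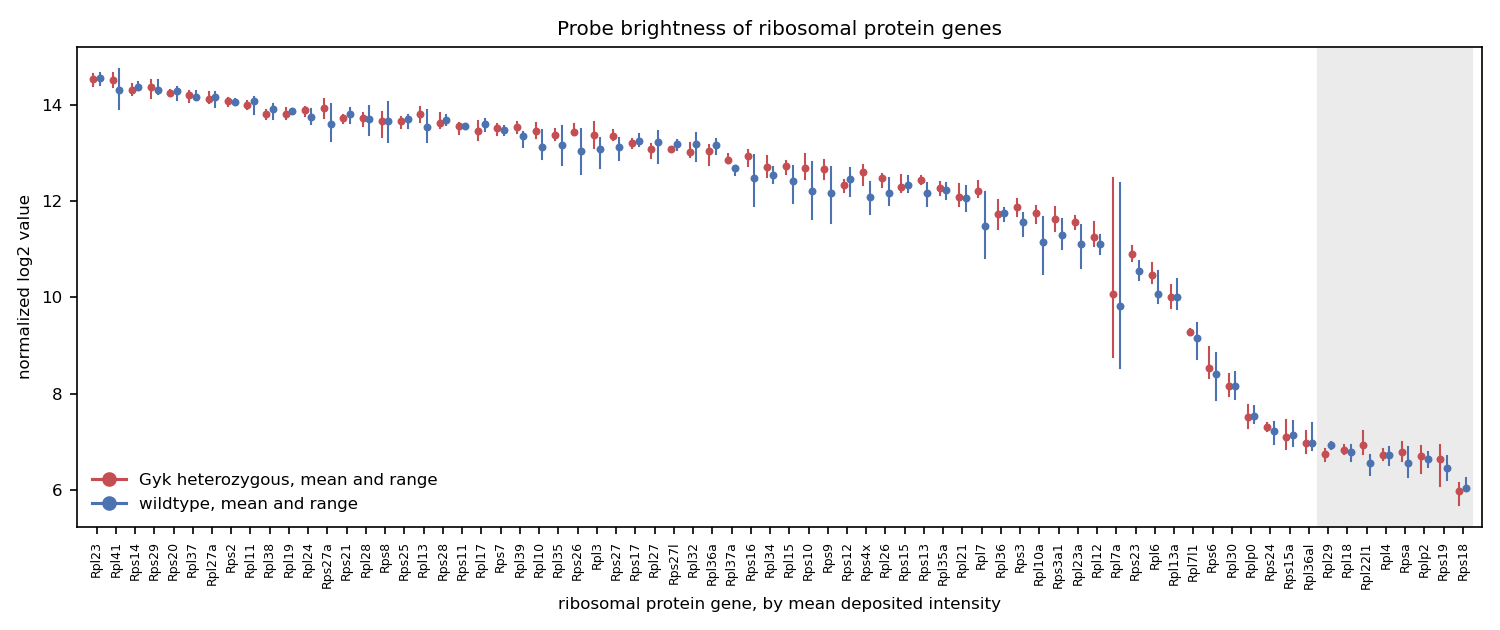
Normalized log2 values (vertical axis) of ribosomal protein genes (horizontal axis, ordered by mean deposited intensity), with the mean as a point and the range over 5 arrays as a bar, heterozygous to the left of wildtype. The shaded genes at the right are the 8 that were detected on fewer than 5 arrays, and most of the others lie above a log2 value of 10.

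RefSeq promoter sequences (assembly GRCm38.p6) were at hand for 56 of the 73 genes. Each covers 300 bases, 250 before the annotated start and 50 from it. The sequences of 8 genes are shown, taken in order of p from the tested genes with a promoter entry, 4 higher in heterozygous liver (Rps4x, Rps23, Rpl10a and Rpl10) and 4 lower (Rps27l, Rpl36a, Rpl38 and Rps21), each from 60 bases before the start to 20 bases from it, read 5′ to 3′ on the gene's own strand. Capitals mark GGGCGG, the core of Sp1 sites, or its reverse complement CCGCCC, and CCGGAAG, the reverse complement of the ETS letters CTTCCGG, as well as TATAAA, the letters of a TATA box. They also mark the run of C and T at the start itself where that run opens with C and goes on for at least 4 more pyrimidines, and in Rps21 the first base of that run is also the last of CCGCCC. In Rpl36a the letters TATAAA lie after the annotated start, so they are a match of letters only.
Rps4x (chrX:102189372-102189451, minus strand): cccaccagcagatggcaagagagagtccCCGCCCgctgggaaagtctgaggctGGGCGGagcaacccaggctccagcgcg
Rps23 (chr13:90923062-90923141, plus strand): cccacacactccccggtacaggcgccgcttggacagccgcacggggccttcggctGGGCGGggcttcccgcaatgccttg
Rpl10a (chr17:28328411-28328490, plus strand): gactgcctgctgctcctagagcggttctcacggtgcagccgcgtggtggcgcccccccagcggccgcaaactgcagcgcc
Rpl10 (chrX:74270756-74270835, plus strand): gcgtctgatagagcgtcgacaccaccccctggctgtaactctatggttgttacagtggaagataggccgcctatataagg
Rps27l (chr9:66946026-66946105, plus strand): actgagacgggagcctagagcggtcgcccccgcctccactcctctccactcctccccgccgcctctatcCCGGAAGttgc
Rpl36a (chrX:134585594-134585673, plus strand): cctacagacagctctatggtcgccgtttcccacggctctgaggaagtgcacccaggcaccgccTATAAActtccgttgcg
Rpl38 (chr11:114668520-114668599, plus strand): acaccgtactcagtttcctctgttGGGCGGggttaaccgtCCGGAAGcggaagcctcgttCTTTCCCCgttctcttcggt
Rps21 (chr2:180257319-180257398, plus strand): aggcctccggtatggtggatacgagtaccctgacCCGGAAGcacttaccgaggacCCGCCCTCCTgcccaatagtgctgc

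A start of C and at least 4 more pyrimidines, as in a TOP mRNA, was annotated for 11 of the 56 genes (19.6%), against 2.17% of 17492 protein-coding genes: Rpl15, Rpl28, Rpl35, Rpl38, Rplp2, Rps6, Rps10, Rps15a, Rps18, Rps21 and Rps27. CTTCCGG on either strand occurred in 23 of 56 windows (41.1%), against 11.9% of all, and GGGCGG on either strand in 36 (64.3%), against 46.3%. GATGGCG, letters of YY1 sites, occurred in 8.93% against 4.46%, and TATAAA in 10.7% against 13.3%. These are matches of letters in annotated windows, and a start annotated a few bases away from the true one would move a gene out of the first count. Of the 8 genes printed, Rpl38 and Rps21 had such a run at the start.

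The comparison of heterozygous with wildtype liver asked which ribosomal protein transcripts differ when 1 copy of Gyk is altered. Of the 65 genes tested, 40 had a higher mean in heterozygous liver and 25 a lower one, with a median log2 change of 0.06 and a range of -0.16 to 0.73. Over all 10238 kept probes 46.5% had a higher mean in heterozygous liver and the median was -0.01. In limma 0 of the 65 genes had an adjusted p under 0.05, as did 0.0% of all probes. At an unadjusted p under 0.05 there were 19 ribosomal protein genes (29.2%), against 11.9% of all probes, and all 19 were higher in heterozygous liver, where 7.26% of all probes were higher and 4.69% lower at that p. They were 8 of 34 large subunit genes (among them Rpl6, Rpl7, Rpl10, Rpl10a, Rpl23a, Rpl26 and Rpl37a) and 11 of 27 small subunit genes (Rps3, Rps3a1, Rps4x, Rps9, Rps10, Rps13, Rps16, Rps23, Rps26, Rps27 and Rps27a), with log2 changes of 0.18 to 0.73 and adjusted p of 0.331 to 0.378. The split moved with the scaling: with the deposited values left unnormalized 8 genes were higher and 6 lower at that p (5.58% and 7.06% of all probes), with arrays scaled to a common median 15 and 2 (7.79% and 4.53%), and with cyclic loess 20 and 0 (7.2% and 4.95%). Since the family was chosen with earlier results of these data known, these shares describe it and are no test of the list. In whole liver, fewer cells with a transcript and less of it per cell cannot be told apart.

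Genes with small p among those higher in heterozygous liver are given by sample. Rps4x, a small subunit protein encoded on the X chromosome, had intensities of 6663.5, 6153, 6293, 5912 and 5153 in heterozygous livers, against 5807, 4913, 3914, 3367 and 4059.6 in wildtype livers. The 3 lowest values were those of wildtype replicates 3 to 5, and wildtype replicate 1 lay within the heterozygous range. The log2 change was 0.51 (SE 0.13, limma adjusted p = 0.331). Rpl7, a large subunit protein, read 4606, 4941, 4454.5, 4468 and 4296 in heterozygous livers, against 5004, 3370.5, 2720.4, 1739.8 and 2181 in wildtype livers. Wildtype replicate 1 was the highest of all 10, whereas wildtype replicates 3 to 5 were the lowest, and the log2 change was 0.73 (SE 0.22, limma adjusted p = 0.331).

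Rpl10a, which forms the movable L1 stalk beside the exit site for tRNA, had intensities of 3208.5, 3421, 3419, 3487 and 2882 in heterozygous livers, against 3447.5, 2961, 1953, 1349 and 2033 in wildtype livers. In intensity, wildtype replicates 1 and 2 fell inside the heterozygous range and the other 3 wildtype values lay below it, for a log2 change of 0.59 (SE 0.20). Rpl23a sits at the exit of the tunnel through which the new protein leaves, and read 2677.5, 2709, 3234, 3066 and 2833 in heterozygous livers, against 2149.6, 2950, 2084, 1496 and 2208 in wildtype livers. Here wildtype replicate 2 was inside the heterozygous range and the other 4 wildtype values below it, and the log2 change was 0.46 (SE 0.14).

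Rps23, which lies near the decoding site of the small subunit, showed another pattern. Its intensities were 1634, 1566, 2009, 2003 and 1877 in heterozygous livers, against 1725, 1387, 1471, 1368 and 1257.5 in wildtype livers, and the log2 change was 0.36 (SE 0.10). On the normalized scale the 5 heterozygous values were all above the 5 wildtype values, but the lowest heterozygous and the highest wildtype value both round to 10.76. As deposited, wildtype replicate 1 lay above heterozygous replicates 1 and 2. Rpl37a, a zinc-binding protein of the large subunit, was the other gene without overlap on the normalized scale, though it overlapped as deposited, with a log2 change of 0.18 (SE 0.07). These were 2 of 65 genes (3.08%), against 0.977% of all probes, and in the other direction there were 0 genes, against 0.801% of all probes. For Rps4x, Rpl7, Rpl10a, Rpl23a and Rps23 the limma adjusted p was 0.331.

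None of the 25 genes with a lower mean reached an unadjusted p under 0.05. The 6 with the smallest p were Rpl17, Rps27l, Rpl32, Rpl36a, Rpl38 and Rps21, with log2 changes of -0.16 to -0.09 and limma adjusted p of 0.602 to 0.689. Rpl17, which lines the exit tunnel, had intensities of 9547, 9412, 11443, 12097 and 12053 in heterozygous livers, against 12565, 11569, 12181, 13382 and 13927 in wildtype livers. The lowest 3 values were heterozygous and the highest 3 wildtype, with the rest interleaved. Rpl32 of the large subunit had 7539.7, 7009.6, 8510.2, 9019.5 and 8128.5 in heterozygous livers, against 7997, 8430.5, 9478, 10643 and 10968 in wildtype livers. Wildtype replicates 3 to 5 were its 3 highest arrays, and the log2 change was -0.16 (SE 0.12).

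Rps27l is a paralog of Rps27 and a target of p53 in human cells. Its intensities were 8456, 8095, 8746, 8557 and 8297 in heterozygous livers, against 9639, 8846, 9110.5, 10101 and 9002 in wildtype livers, and its log2 change was -0.09 (SE 0.07). As deposited, all 5 wildtype values exceeded the heterozygous ones, but after normalization wildtype replicates 1 and 2 lay among them. Rpl38, whose loss in mice alters the pattern of the skeleton, had intensities of 14222, 13722, 14474, 13746 and 13078 in heterozygous livers, against 14371, 16898, 15056, 16282 and 17763 in wildtype livers. Wildtype replicate 1 lay among the heterozygous values and the other 4 wildtype values above them. Rps21 of the small subunit had 12304, 12456, 13920.4, 13578 and 12591 in heterozygous livers, against 13519, 16264, 14188, 13973 and 16066 in wildtype livers. The 2 highest values were those of wildtype replicates 2 and 5, and the groups overlapped. Both promoters, printed above, carry a pyrimidine start, and their log2 changes were -0.10 (SE 0.08) and -0.09 (SE 0.08). Rpl36a, encoded on the X chromosome, had 8807, 8381, 9326, 7586 and 6917 in heterozygous livers, against 8939, 9193, 8540.3, 9724 and 10270.5 in wildtype livers. Its 2 lowest values were those of heterozygous replicates 4 and 5, and the rest overlapped except for wildtype replicates 4 and 5 at the top.

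**Figure D2:**
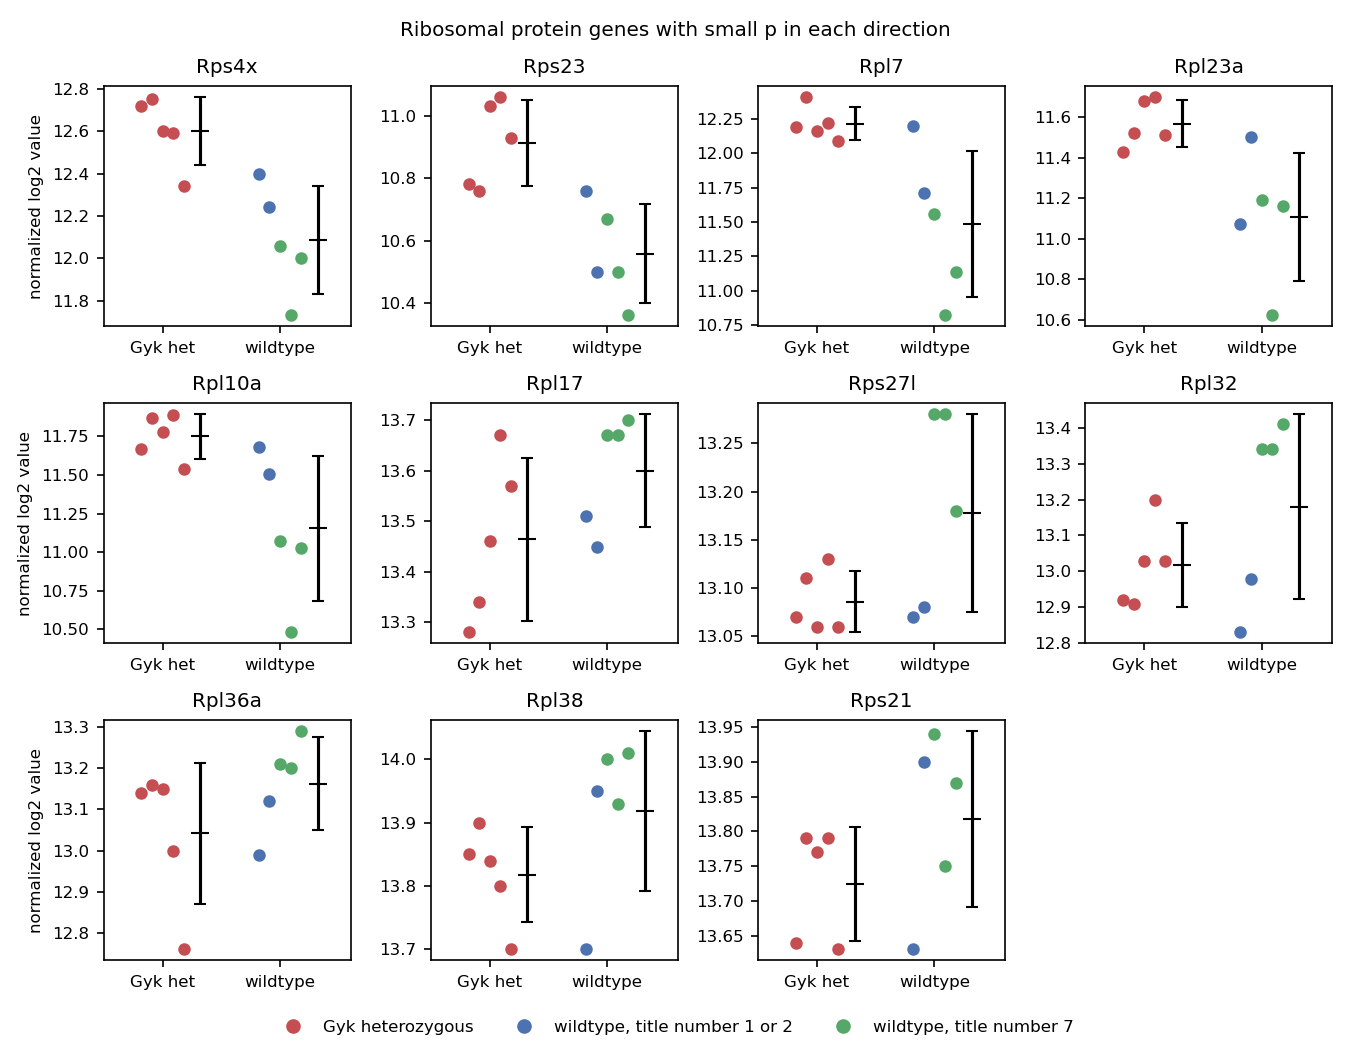
Normalized log2 values (vertical axes, which do not start at 0) of ribosomal protein genes with small p in each direction, 1 point per array, with the mean and SD of each group (n = 5) as a black bar. In Rps4x, Rpl7 and Rpl10a the wildtype samples of title number 7 are the lowest points, and in Rpl32 they are the highest.

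The larger differences between genotypes in these genes lay mostly in wildtype replicates 3 to 5, whose titles carry the number 7. On the normalized scale all 3 were below the other 7 samples for 17 of 65 genes (26.2%), against 6.95% of all probes, among them Rpl7, Rpl7l1, Rpl10, Rpl10a, Rpl15, Rpl24, Rpl35, Rpl41, Rps3, Rps4x, Rps9, Rps10, Rps13, Rps16, Rps26 and Rps27a. This count rests on the brightest probe of each gene. Rps3, Rps9 and Rpl7l1 also had a second detected probe, and in none of these second probes were the 3 samples the lowest. On the same scale all 3 were above the other 7 for 5 genes (7.69%), against 7.32% of all probes: Rpl27, Rpl32, Rpl36a, Rps12 and Rps27l. Wildtype replicate 4 alone was the lowest of the 10 arrays for 28 of the 65 genes, and its median deviation from the mean of each gene was -0.09 on the log2 scale, with a lower quartile of -0.45. The 2 comparisons that each use a part of the wildtype animals were chosen after this was seen.

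Set against wildtype replicates 1 and 2 alone, the higher ribosomal protein genes had smaller log2 changes. Of 65 genes 0 had an adjusted p under 0.05 in limma (0.0% of all probes) and 0 an unadjusted p under 0.05, which 3.44% of all probes had. The lowest unadjusted p was 0.056, for Rps23, with a log2 change of 0.29 there and 0.36 over all 10 animals. Only 2 wildtype arrays enter this comparison, and wildtype replicate 1 is an array that stood apart. The counts of 0 therefore do not show that the groups were alike. The 19 genes named above had log2 changes of 0.04 to 0.29 (median 0.16) there, and each of the 19 was smaller than over all 10 animals, where the median was 0.38. They had been picked on the fit that includes wildtype replicates 3 to 5, and the difference between the 2 parts of the wildtype animals was not tested. When the leading title number entered the fit as a block, the counts were likewise 0 and 0, against 0.0% and 4.95% of all probes. Over all 65 genes the median log2 change was 0.07 against wildtype replicates 1 and 2 (47 higher, 18 lower). It was 0.10 against wildtype replicates 3 to 5 (39 higher, 26 lower). Over all kept probes these medians were 0.02 and -0.03, with 5697 and 4544 of 10238 probes higher.

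Set against wildtype replicates 3 to 5 alone, 19 of 65 genes had an adjusted p under 0.05 in limma (29.2%), against 9.49% of all probes, and 29 an unadjusted p under 0.05, which 26.7% of all probes had. Higher in heterozygous liver were 18 genes (6.05% of all probes), 9 of each subunit, and 1 gene, Rpl32, was lower (3.45% of all probes). Rpl7 had the largest change, with a mean intensity of 4553 in the 5 heterozygous livers, against 2214 in these 3 wildtype livers, a log2 change of 1.05 (SE 0.15, limma adjusted p = 0.0082). Also higher were Rpl10a with 0.89 (adjusted p = 0.0122), Rps16 with 0.76 (adjusted p = 0.0121), Rps10 with 0.75 and Rps9 with 0.74. A further 12 higher genes were Rps4x, Rps26, Rpl23a, Rpl15, Rpl10, Rps27a, Rpl6, Rps3, Rpl41, Rps23, Rpl26 and Rps13, with log2 changes from 0.67 to 0.37 in that order. Rpl32 had a log2 change of -0.35 (SE 0.09, limma adjusted p = 0.0371). In these 3 animals genotype and title number cannot be told apart. Other choices of arrays gave counts in between: 8 genes were called, all higher, without wildtype replicate 1 (4.25% of all probes called, 3.17% higher), 7 with array weights (4.0%), and 3 without the pair of arrays that stood apart (2.01%).

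**Figure D3:**
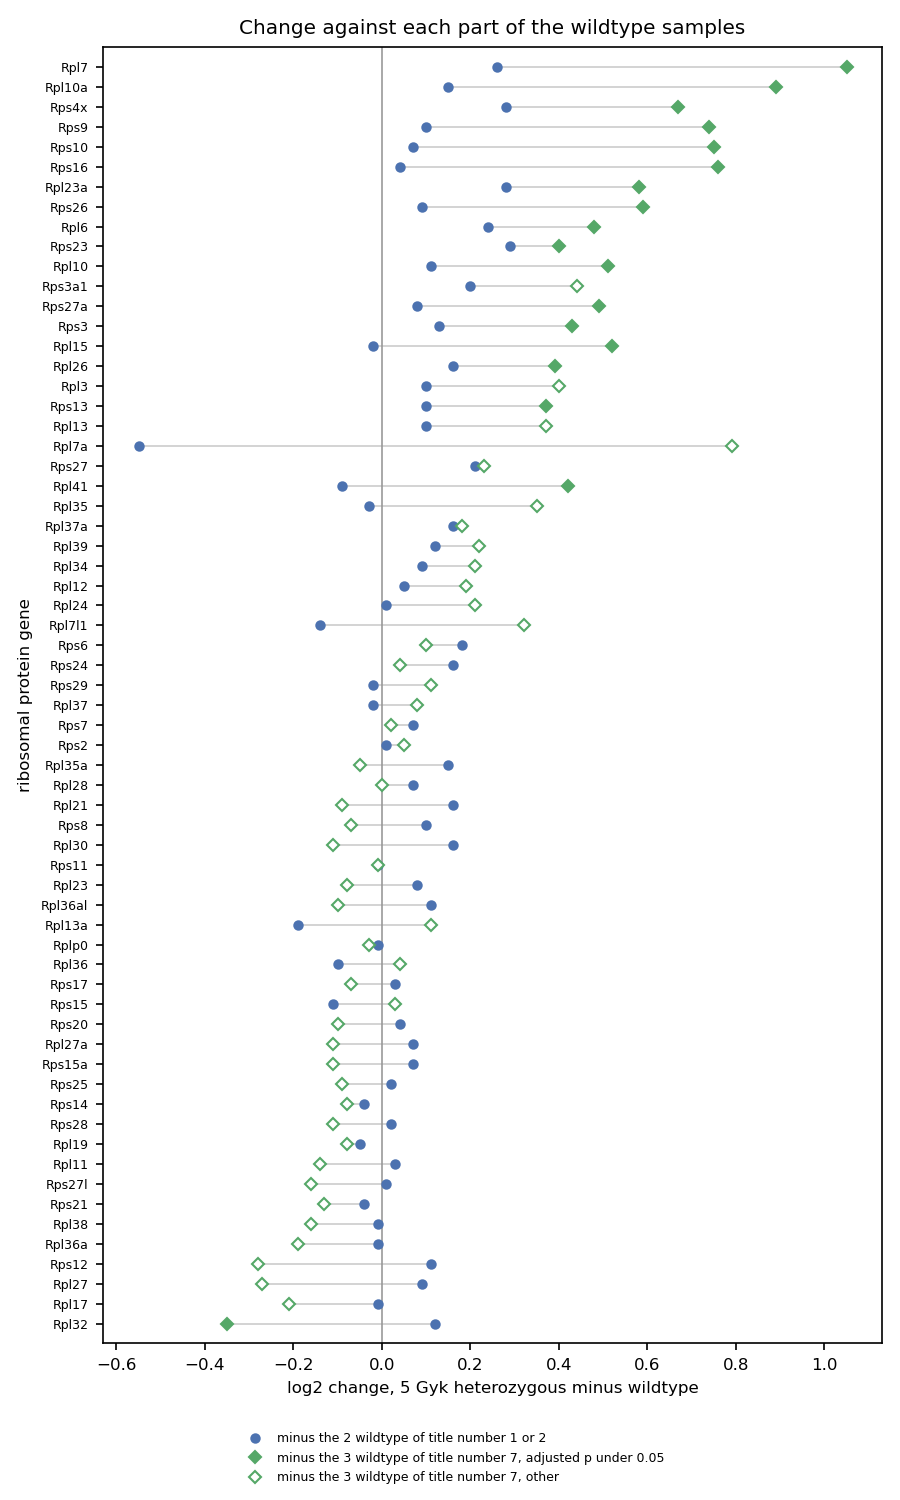
Log2 change of tested ribosomal protein genes (horizontal axis), heterozygous minus the 3 wildtype samples of title number 7 (diamonds, filled where the limma adjusted p was under 0.05) and minus the 2 wildtype samples of title number 1 or 2 (circles). At the top of the plot the diamonds reach 1.05 while the circles stay under 0.3.

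Rps16 and Rps9 are examples of the contrast between the wildtype animals. Rps16, which lies on the head of the small subunit, had intensities of 8358, 7248, 7619, 7888 and 6819 in heterozygous livers, against 8096, 8186, 4527, 3842 and 5359.7 in wildtype livers. Wildtype replicates 1 and 2 were as high as the heterozygous animals and replicates 3 to 5 below all of them, so that the log2 change was 0.76 against replicates 3 to 5 and 0.04 (SE 0.11) against replicates 1 and 2. Rps9, whose bacterial counterpart binds early in the assembly of the small subunit, had 5548, 6625, 6078, 6899.7 and 6053 in heterozygous livers, against 5757, 6918, 4043, 2908.5 and 4483 in wildtype livers. Its 2 changes were 0.74 and 0.10 (SE 0.15), and those of a second, dimmer probe of Rps9 0.21 and 0.18.

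**Figure D4:**
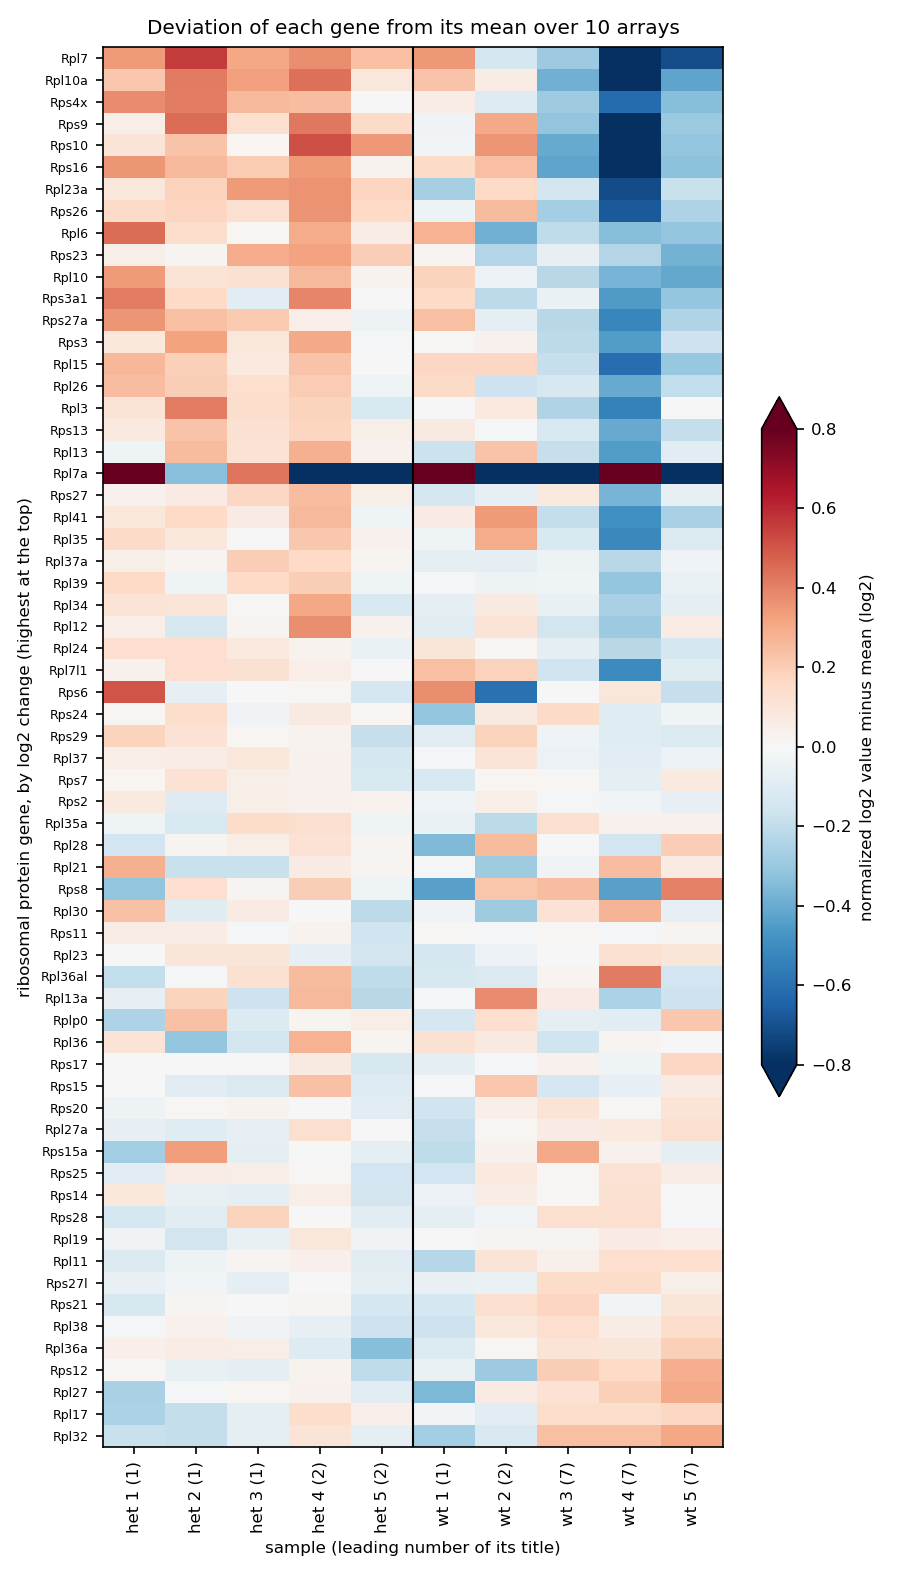
Normalized log2 value of tested ribosomal protein genes (rows, the highest log2 change at the top) in each sample (columns, with the title number in brackets) minus the mean of that gene over 10 arrays, in colour (red above, blue below the mean, with the ends of the scale at 0.8). Wildtype replicates 3 to 5 are blue in the upper rows and pale red at the bottom, and wildtype replicates 1 and 2 are mixed.

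The spread between animals was larger in wildtype livers, for ribosomal protein genes as for the array at large. Over the 65 genes the median SD of the normalized log2 value was 0.118 in heterozygous and 0.19 in wildtype livers, and the wildtype SD was the larger in 47 genes (72.3%). Over all kept probes the median SD was 0.148 in heterozygous and 0.198 in wildtype livers, and the wildtype SD was the larger in 70.9%. As a share of the summed intensity of an array, the 65 tested genes made up 4.55% to 5.12% in heterozygous and 4.38% to 5.04% in wildtype livers, so the groups overlapped. The probe for 18S rRNA, the RNA of the small subunit, had a log2 change of 0.01 (SE 0.11).

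Of the 4 ribosomal protein genes on the X chromosome, 3 had a higher mean in heterozygous liver and 1 a lower one. Rps4x is given above. Rpl10, which joins the large subunit late in its assembly, had intensities of 12187.5, 9751, 11257, 11409.5 and 10158 in heterozygous livers, against 12339, 9790.5, 7886, 8166 and 7707 in wildtype livers. Wildtype replicates 3 to 5 were again the lowest, with a log2 change of 0.35 (SE 0.12, limma adjusted p = 0.339) over all 10 animals and 0.11 (SE 0.12) against wildtype replicates 1 and 2. Rpl39 had a log2 change of 0.18 (SE 0.09) and Rpl36a of -0.12 (SE 0.10), and neither had an unadjusted p under 0.05. Rps27a, made as a fusion of ubiquitin with a small subunit protein, had a log2 change of 0.33 (SE 0.13) over all animals and 0.08 (SE 0.14) against wildtype replicates 1 and 2. Rplp0, the base of the P stalk that recruits elongation factors, read 88.5 ± 19.2 in heterozygous and 91.9 ± 17 in wildtype livers (SD, n = 5 each), a log2 change of -0.02 (SE 0.11) from a dim probe.

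For 4 genes a second probe was also detected. Rps9 differed most between its probes: the second one had intensities of 4185.5, 2847, 3362, 3781 and 3285 in heterozygous livers, against 3851, 2766, 2879.5, 2969 and 3150.5 in wildtype livers. Its wildtype replicates 3 to 5 lay within the heterozygous range, and its log2 change was 0.20 (SE 0.11) over all animals, where the brighter probe gave 0.49. Against wildtype replicates 3 to 5 the probes gave 0.21 and 0.74. For Rpl27a the second probe had a log2 change of -0.10 (SE 0.11) and the brighter one of -0.04 (SE 0.08), and for Rpl7l1 the changes were 0.05 (SE 0.09) and 0.13 (SE 0.13). Over all 10 animals no pair differed in direction. Against wildtype replicates 1 and 2 alone, 3 pairs did: the brighter probe of Rps3 had a log2 change of 0.13 and the second of -0.17, that of Rpl27a 0.07 and -0.14, and that of Rpl7l1 -0.14 and 0.04. The fit that blocks on title number gave these 6 values the same signs, and the unadjusted p was above 0.05 for each of these values.

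A few probes were highest on the 2 arrays of replicate 1. The Rpl7a probe, for a large subunit protein, had intensities of 5594, 669, 1229, 336 and 467 in heterozygous livers, against 5679, 368, 262, 1653 and 282.5 in wildtype livers. Heterozygous replicate 1 and wildtype replicate 1, the arrays that stood apart, were more than 3 times as high as any other, and the log2 change was 0.25 with an SE of 0.86. The second probe of Rps3, which binds mRNA at the entry channel, had 1577, 688, 731, 592 and 571 in heterozygous livers, against 1715.5, 463, 386, 527 and 400.3 in wildtype livers. The same 2 arrays were high in this probe. On the remaining arrays each heterozygous value lay above each wildtype value. Over all 10 animals the log2 change of this probe was 0.35 (SE 0.36). Without wildtype replicate 1 it was 0.68 (SE 0.25, limma adjusted p = 0.132), but the high heterozygous replicate 1 stayed in that fit and raises the value. The brighter Rps3 probe read 3501, 3838, 3514, 3896 and 3236 in heterozygous livers, against 3597.5, 3435, 2653, 2389 and 2972 in wildtype livers and gave no such peak. Rps6, the small subunit protein phosphorylated by S6 kinase, had 429, 242, 257, 261 and 226 in heterozygous livers, against 386, 133, 247, 265 and 211 in wildtype livers. Its highest arrays were also these 2, and why they stood apart was not tested.

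**Figure D5:**
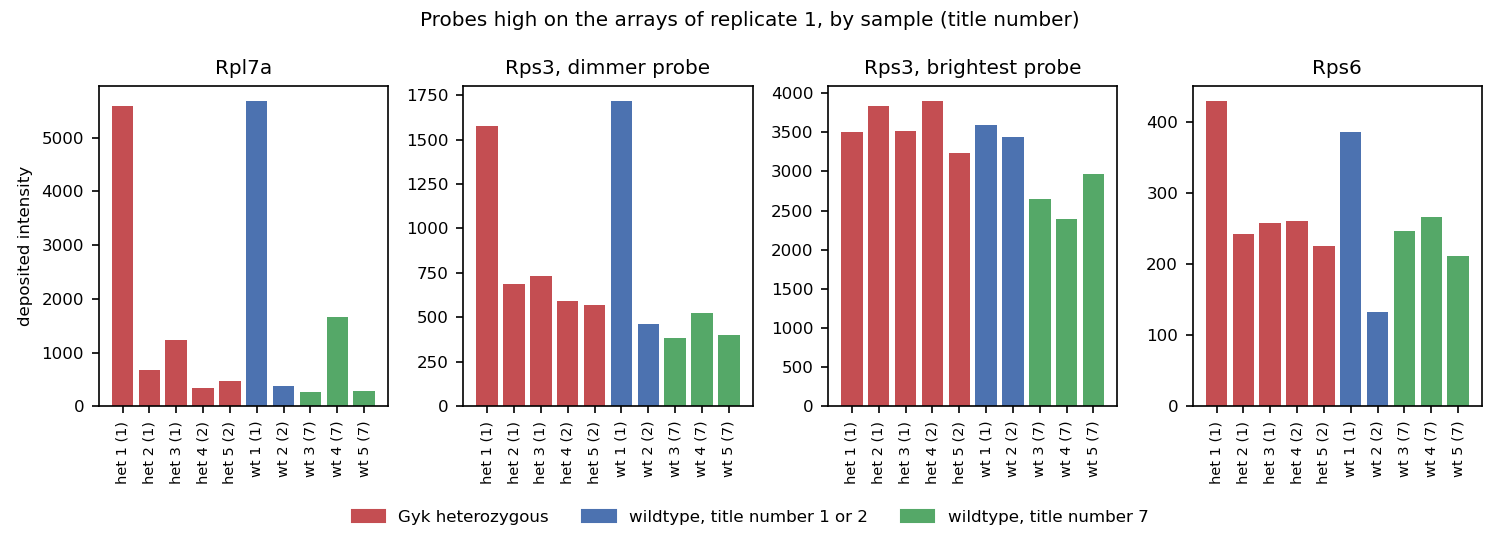
Deposited intensity (vertical axes, from 0) in each sample (horizontal axis, with the title number in brackets) for Rpl7a, both probes of Rps3, and Rps6. Heterozygous replicate 1 and wildtype replicate 1 are the 2 highest bars for Rpl7a, the dimmer Rps3 probe and Rps6, and not for the brightest Rps3 probe.

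Genes that share the TOP start or act with the ribosome were read beside the ribosomal proteins. Of 18 elongation factors and other TOP genes 14 had a probe and 12 were tested, and 10 had a higher mean in heterozygous liver and 2 a lower one, with a median log2 change of 0.06. An unadjusted p under 0.05 was reached by 4 of the 12, against 11.9% of all probes: Eef1b2, a guanine exchange factor of elongation factor 1, at 0.62 (SE 0.20), Hnrnpa1 at 0.50 (SE 0.14), Eef2, the translocase, at 0.32 (SE 0.11), and Eef1g at -0.24 (SE 0.07), each with a limma adjusted p of 0.331. The Hnrnpa1 probe was dim, with mean intensities of 89.9 in heterozygous and 39.1 in wildtype livers, and was detected on 8 arrays. Eef1b2 and Eef2 were lowest in wildtype replicates 3 to 5, and against those animals 6 of the 12 had an adjusted p under 0.05, in both directions, against 9.49% of all probes. Of 40 genes of ribosome assembly 17 were tested, 8 higher and 9 lower in heterozygous liver with a median of -0.03, and 3 of the 17, Nop56 (0.35), Eif6 (0.40) and Ebna1bp2 (-0.19), had an unadjusted p under 0.05 (11.9% of all probes), with limma adjusted p of 0.362 to 0.379. Against wildtype replicates 3 to 5 these 3 genes had log2 changes of 0.51, 0.66 and -0.20. Against wildtype replicates 1 and 2 they had 0.12, 0.02 and -0.18.

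Blood markers were brightest in wildtype replicates of title number 7, with an overlap between groups. The summed intensity of the 2 erythroid markers with a probe, Hba-a1 and Hbb-b1, was 7172 to 12740 in heterozygous livers, 12267 to 31945 in wildtype replicates 3 to 5, and 7893 to 9048 in wildtype replicates 1 and 2. The 4 Kupffer cell markers with a probe summed to 1223 to 2452 in heterozygous livers, 1034 to 1444 in wildtype replicates 3 to 5, and 966 to 2667 in wildtype replicates 1 and 2. The part of these cells in the ribosomal protein values was not tested. Col1a1, Col1a2 and Acta2 of the stellate list, Ptprc of the lymphocyte list and Cel, the pancreas marker with a probe, were not detected on 5 arrays. Pecam1, the 1 endothelial marker with a probe, read 32.8 to 173 in heterozygous livers and 29.0 to 128 in wildtype livers.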

How the data were processed

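Total RNA of 10 livers was amplified, labelled with biotin and hybridised to Illumina bead arrays, per the labels' protocols, and BeadStudio 1.5.1.3 is named in the submitters' processing notes. The deposited values are linear intensity with 31.1% to 33.1% of values below 0 on each array, and how the authors normalized arrays to each other is not stated. A second table with 80 columns on 2 chips names no samples and was not used.

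A constant of 95.2, which brought the lowest value to 16, was added before log2 and quantile normalization (limma 3.58.1, R 4.3.3). It pulls log2 changes of dim probes toward 0. Detection meant a value above 1.64 times the root mean square of the negative values of that array (thresholds of 21.9 to 41.1), and 10238 probes detected on at least 5 arrays were kept. Groups were compared with lmFit and eBayes (two-sided, 11.0 total degrees of freedom, of which 3.03 from the prior), with Benjamini-Hochberg adjustment over all kept probes and a threshold of 0.05. Scripts were tested on simulated data.

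Probe identifiers hold a number that was read as an Entrez Gene number and matched to a RefSeq gene table (GRCm38.p6), which named 8884 probes. This reading is an inference. Cross-hybridisation with paralogs and pseudogenes, which are many for ribosomal proteins, could not be checked, since probe sequences were not used here. Replicates are separate mice, numbered in label order, and precision is limited by their number.

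Genes were named for the 6 smallest p higher and the 6 smallest p lower, those on chromosome X, the P stalk and Rpsa, genes whose probes disagree, the dimmest and brightest, and up to 3 of each other list. Rps16, Rps9, Rps27a, Rpl37a, Rpl7a, Rps3, Rps6 and the genes listed against a part of the wildtype animals were chosen after their values were seen. The values of 1 tested gene are not reported here, and it stays in the counts. The members and lists were chosen with earlier results of these data known. Marker lists covered hepatocytes, Kupffer cells, lymphocytes, erythroid, endothelial, stellate, and pancreas or gut cells. Cd3e and Lrat were the detected lymphocyte and stellate markers.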

Additional observations from a re-analysis of the deposited data

Results flagged for a closer look

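In 9 of 132 groups of 5 arrays (6.82%) the highest or lowest array stood far from the other 4, where chance gives about 1 in 20. On the normalized log2 scale Rps6 was high in heterozygous replicate 1 (8.97, the others 8.33 to 8.48) and Rps26 high in heterozygous replicate 4 (13.60, the others 13.37 to 13.41). Rps2 was low in heterozygous replicate 2 (13.97, the others 14.10 to 14.15) and Rpl37 low in heterozygous replicate 5 (14.05, the others 14.22 to 14.28). Among wildtype arrays, Rpl6 was high in replicate 1 (10.55, the others 9.89 to 10.07), and Rpl11 (13.81, the others 14.08 to 14.17) and Rpl38 (13.70, the others 13.93 to 14.01) were low there. Rps29 was high in wildtype replicate 2 (14.51, the others 14.22 to 14.30) and Rpl39 low in wildtype replicate 4 (13.13, the others 13.39 to 13.43). Of the 9 arrays so marked, 4 were the heterozygous or wildtype replicate 1 that stood apart from the rest.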

How the results depend on the processing

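The count of 0 called probes and 0 called ribosomal protein genes held with 50 as the lowest value, normexp correction, median scaling, cyclic loess, no normalization, no filter, detection on all 10 arrays and the title number as a replicate block. With array weights 410 probes and 7 of the 65 genes had an adjusted p under 0.05, and without the pair of arrays that stood apart 206 and 3. Leaving out single animals gave 0 to 435 probes and 0 to 8 genes, and both upper values came without wildtype replicate 1, with genes such as Rpl6, Rpl7, Rpl10, Rpl10a, Rpl26, Rps4x and Rps23, all higher in heterozygous liver. Against wildtype replicates 3 to 5 alone (chosen after seeing the data) 972 probes and 19 genes were called, and 29 genes had an unadjusted p under 0.05, against 19 over all animals, 0 with the replicate block, 0 against wildtype replicates 1 and 2, and 12 to 24 when single animals were left out, the lowest without heterozygous replicate 4. The median log2 change of the ribosomal protein genes was 0.04 to 0.09 without single animals, that of the elongation list 0.05 to 0.12, of the mitochondrial ribosome -0.02 to 0.03 and of ribosome assembly -0.10 to 0.02, and the last was -0.12 against wildtype replicates 3 to 5. The change of Gyk ran from -0.74 to -0.50. Of 322 values of 14 named genes under the alternatives 295 kept their direction and side of the threshold, 22 passed it and 5 changed sign: with the replicate block Rpl17 (0.00), Rps27l (0.01) and Rpl32 (0.13), and against wildtype replicates 1 and 2 Rps27l (0.01) and Rpl32 (0.12). The cause was not tested. None of the 14 genes passed the threshold in the main fit, so a change that shrank without changing sign counted as kept. An example is Rpl7, with 0.73 in the main fit and 0.24 with the replicate block. Title numbers 1 and 2 occur in both genotypes and 7 in wildtype alone, so the block rests on titles 1 and 2.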

Other observations

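Proteins of the mitochondrial ribosome, which translates the few mRNAs of mitochondrial DNA, were measured by 35 genes, of which 33 were tested. In heterozygous liver 15 had a higher and 18 a lower mean, with a median log2 change of -0.01, and 0 had an adjusted p under 0.05 in limma. At an unadjusted p under 0.05 there were 4 higher and 5 lower genes, against 7.26% and 4.69% of all probes. Mrpl19 was lower by the smallest p (log2 change -0.39, SE 0.08, adjusted p = 0.331), followed by Mrpl49 (-0.37, SE 0.08) and Mrpl33 (-0.27, SE 0.07). Against wildtype replicates 3 to 5 alone 9 of the 33 had an adjusted p under 0.05, against 9.49% of all probes, and 5 of them were higher in heterozygous liver (6.05% of all probes higher, 3.45% lower).

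Of 10 targets of p53, which is known to be stabilised by free ribosomal proteins when ribosome assembly fails, 3 had a probe and all 3 were tested. Ccng1, a cyclin induced by p53, had a log2 change of 0.35 (SE 0.10, limma adjusted p = 0.331), and 2 of the 3 had a higher mean in heterozygous liver. Gdf15 was also higher, at 0.19 (SE 0.22), and Cdkn1a was lower, at -0.23 (SE 0.35). Ccng1 was lowest in the wildtype samples of title number 7. Against those samples alone Ccng1, Gdf15 and Cdkn1a had log2 changes of 0.46, 0.24 and -0.48. Against wildtype replicates 1 and 2 they had 0.18 (SE 0.11), 0.11 and 0.13. Activity of p53 itself was not tested.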
